A study of Mus musculus with 108 samples.

Results

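The Zfp genes numbered from 300 upward are mouse genes that took the family name Zfp (zinc finger protein) and a serial number. Here the set was every gene whose array annotation gave the symbol Zfp and a 3-digit number from 300 upward, with or without a closing letter, on a probe set annotated to that gene alone. This gave 234 of the 18193 genes tested, with numbers running from 316 to 995, and 231 of the 234 were listed as protein coding. They were read by 422 probe sets, and the brightest probe set of each gene, by its mean over all arrays, stood for the gene. A further 13 Zfp genes in that number range appeared only on probe sets shared with other genes and were left out.

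Many of these genes encode proteins in which a KRAB domain is joined to an array of C2H2 zinc fingers. The fingers bind DNA, often within transposable elements, and the KRAB domain recruits the corepressor TRIM28, which brings in enzymes that methylate histone H3 and silence the bound site. Genes of this kind lie in clusters of tandem copies that differ widely between species, and the number does not mark a function: the same list holds RNA-binding, ribosomal and developmental proteins with zinc fingers of other kinds.

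The study hybridised RNA from testis, lung, liver, kidney, heart and whole brain of 6 inbred mouse strains to Affymetrix expression arrays. The titles give 1 array per organ and animal. Each of the 36 strain and tissue groups held 3 males aged 11 to 14 weeks, from 22 animals in all by the sample titles. The source names give other animal numbers for the 129S2 brain arrays and for 1 129S2 kidney array. That the 129S2 replicates of these organs were separate animals thus rests on the titles. By the titles, the brain, heart and lung of C57BL/6J came from other animals than its kidney, liver and testis. Between these sets of organs, organ and animals cannot be told apart in C57BL/6J. Charles River France supplied strain 129S2, and the Jackson Laboratory supplied AKR/J, C3HeB/FeJ, DBA2/J, A/J and C57BL/6J. The labels name no treatment and no engineered allele. Strain and supplier coincide for 129S2, so the part of the breeder cannot be told apart from that of the strain. The organs were taken whole, so fewer cells of a type and less RNA per cell cannot be told apart either. Whether the probes match the sequence of every strain equally was not tested, so the differences below are differences in signal.

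Signals were log2 values, on which a difference of 1 is a 2-fold difference in signal. Array medians ran from 4.95 in liver to 6.83 in lung, and replicate arrays correlated at a median of 0.995 to 0.998. The lowest correlation between replicates was 0.9795 in lung and 0.9858 in heart. In heart, array 2 of 129S2 departed from its replicates in some Zfp genes. It read 7.95 for Zfp943 against 7.23 and 7.22, and 6.69 for Zfp362 against 7.48 and 7.54. The markers of each organ were highest in that organ. Array 3 of C3HeB/FeJ lung stood apart in markers of skeletal muscle, with a mean of 9.87 against 6.43 in the next array. It did so too in markers of adipose tissue, with 9.99 against 8.78, and of heart, with 12.155 against 11.158. Heart markers in lung had a mean of 11.10 in C3HeB/FeJ against 9.17 to 9.95 in the other strains, with 3 of 8 passing the test. Macrophage markers were highest in C57BL/6J liver, at a mean of 8.67 against 7.81 to 8.10 in the other strains, with 7 of 8 passing the test. They were also highest in C57BL/6J kidney (7.82 against 7.10 to 7.58, 8 of 8 passing), C57BL/6J brain (8.42 against 8.06 to 8.26, 6 of 8), C3HeB/FeJ lung (9.85 against 9.54 to 9.76, 7 of 8) and AKR/J testis (7.48 against 6.81 to 7.17, 7 of 8). The part of all these markers in the results below was not tested.

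Of all arrays, 106 resembled their own strain most when their profile over genes with large strain differences in other tissues was set against each strain. The exceptions were a pair of brain arrays. The array labelled 129S2 brain 2 correlated at 0.13 with 129S2 and at 0.58 with AKR/J, while the array labelled AKR/J brain 2 correlated at 0.17 with AKR/J and at 0.53 with 129S2. Every other brain array correlated at 0.69 or more with its own strain. The labels were kept, and brain results are given with both arrays and, where these bear on them, without them.

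To ask which of these genes differed among strains within a tissue, the 6 strains were compared with limma's moderated F test in each tissue, and p-values were adjusted over all 18193 genes. In brain, 81 of the 234 Zfp genes (34.6%) passed an adjusted p of 0.05, against 23.1% of all genes. Without the pair of doubtful arrays, brain gave 90 (38.5%) against 27.5%. In lung, 103 (44%) passed against 32.5%. In heart, 59 (25.2%) passed against 21% of all genes. In the other 3 tissues the share was near that of all genes: 107 (45.7%) in kidney against 46.1%, 75 (32.1%) in liver against 31.6%, and 95 (40.6%) in testis against 40.5%. Among genes with a mean signal of at least 6, the share was above the background in brain (35.2% against 29.6%) and lung (46.8% against 40.5%) and below it in heart (28% against 31.9%), kidney (51.4% against 62.6%), liver (37.8% against 49.3%) and testis (45.9% against 52.1%).

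The range, meaning the highest minus the lowest of the 6 strain means, had a median over the Zfp genes of 0.223 in brain, 0.255 in testis, 0.287 in liver, 0.289 in kidney, 0.298 in heart and 0.299 in lung. Over all genes it was 0.192, 0.242, 0.264, 0.281, 0.277 and 0.265 in the same order. Zfp genes that passed the test with strain means at least 1 log2 unit apart numbered 19 in lung (8.12%, against 5.21% of all genes), 17 in kidney (7.26% against 5.07%), 17 in testis (7.26% against 4.09%), 15 in liver (6.41% against 5.66%), 13 in brain (5.56% against 1.64%) and 10 in heart (4.27% against 3.57%). The 95 Zfp genes numbered below 300 passed at 36.8% in brain and 43.2% in testis, close to the higher-numbered genes there. All genes passed at 23.1% and 40.5% in these tissues. With a range of 1 the lower-numbered genes passed at 7.37% in lung, 5.26% in brain and 4.21% in heart, near the higher-numbered genes. In kidney and testis they did so at 4.21% and in liver at 3.16%, below the higher-numbered genes. Of the 20 Zscan and Zkscan genes 5% did so in brain, kidney, lung and testis, and none in heart or liver. No Zbtb gene of 39 passed with a range of 1 in any tissue.

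**Figure D1:**
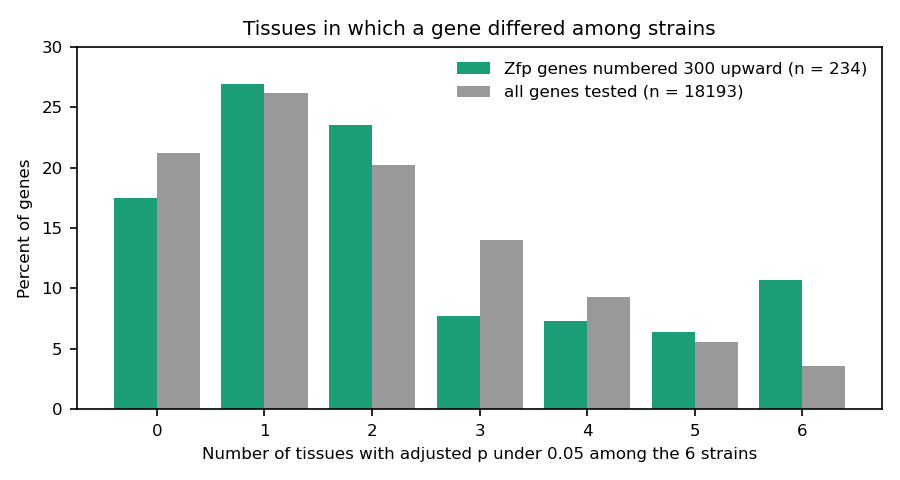
Bars give the percent of genes that passed the test among strains in 0 to 6 tissues, for the 234 Zfp genes and for all 18193 genes. The Zfp genes exceed all genes at 6 tissues, 10.7% against 3.57%, and fall below them at 3 and 4 tissues.

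The number of tissues in which a gene passed was spread unevenly. No tissue gave a difference for 41 Zfp genes (17.5%, against 21.2% of all genes). In 1 tissue 63 passed (26.9% against 26.2%) and in 2 tissues 55 (23.5% against 20.2%). In 3 tissues 18 passed (7.69% against 14%), in 4 tissues 17 (7.26% against 9.28%) and in 5 tissues 15 (6.41% against 5.57%). All 6 tissues gave a difference for 25 Zfp genes (10.7%), against 3.57% of all genes. The same 25 genes passed in all 6 when the pair of brain arrays was left out (background 3.83%). Among genes with a mean signal of at least 6 in every tissue, however, 4 of 70 Zfp genes (5.71%) did so, against 7.52% of all such genes. The excess was thus not present among genes that met this cutoff in every organ. The cutoff lay below the array medians of brain and lung and above those of the other tissues. With all arrays in a single fit, 166 of 234 (70.9%) differed among strains after averaging over tissues, against 62.2% of all genes. In the same fit 165 (70.5%) had a strain difference that depended on the tissue, against 72.4%.

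The 25 genes were Zfp874a, Zfp458, Zfp979, Zfp386, Zfp704, Zfp729a, Zfp931, Zfp991, Zfp949, Zfp939, Zfp868, Zfp963, Zfp994, Zfp839, Zfp429, Zfp975, Zfp708, Zfp945, Zfp932, Zfp397, Zfp943, Zfp944, Zfp759, Zfp869 and Zfp961, in order of the range of their averaged strain means from 2.35 to 0.45. To describe which strains stood apart, the strain means in each tissue were split at their widest gap. The same strains were parted in at least 5 of 6 tissues for 13 of the 25 genes (52%), against 234 of the 650 genes that passed in all 6 tissues (36%), and in every tissue for 7 (28% against 20.6%). Without the pair of brain arrays these became 12 (48% against 35.3%) and 7 (28% against 19.8%).

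**Figure D2:**
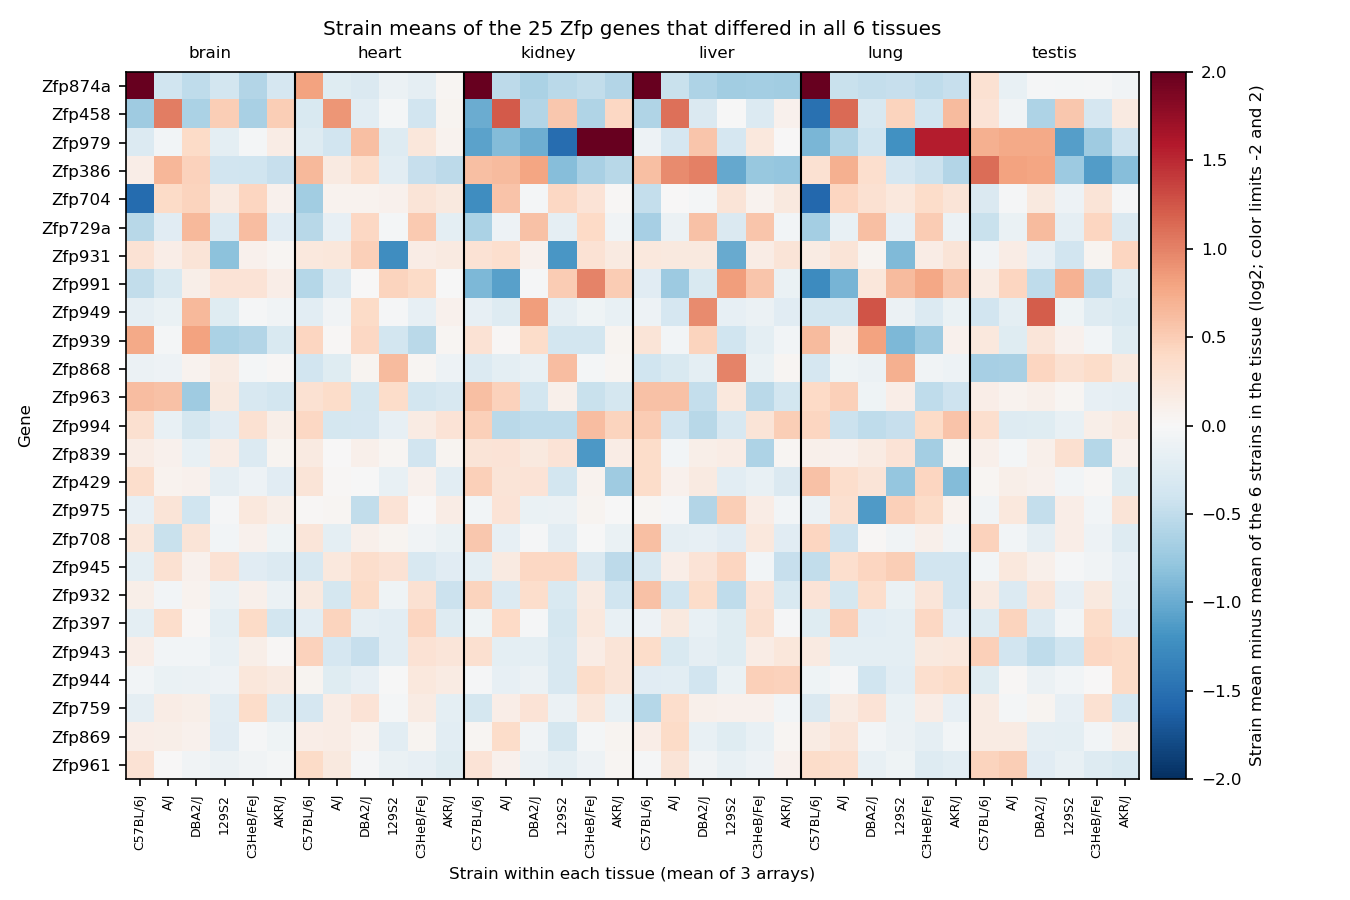
Color gives the strain mean of 3 arrays minus the mean of the 6 strains in that tissue, on the log2 scale, for the 25 Zfp genes that differed in all 6 tissues; values beyond 2 or -2 are drawn at the limit. The rows of Zfp874a, Zfp386, Zfp949 and Zfp729a keep their pattern across tissues, while that of Zfp979 changes between kidney and testis.

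Zfp874a, a KRAB zinc finger gene of the chromosome 13 cluster, was high in C57BL/6J and lower in the other 5 strains in every tissue. In liver the C57BL/6J arrays read 8.25, 8.17 and 8.25, and the highest of the 15 other arrays read 4.88. In kidney the C57BL/6J arrays read 7.68, 7.73 and 7.59, against a highest value of 4.50 elsewhere. The strains did not overlap in any organ. The range of strain means was 3.84 ± 0.11 (SE, n = 3 per strain) in liver (adjusted p 3.91e-14), 3.41 ± 0.10 in kidney (3.43e-14), 2.85 ± 0.09 in lung (3.14e-12), 2.79 ± 0.07 in brain (4.83e-14) and 1.09 ± 0.09 in heart (3.57e-07). Testis gave the smallest range, 0.45 ± 0.07 (adjusted p 0.000661), with C57BL/6J at 4.33, 4.41 and 4.42 and the highest other array at 4.15. The gene had a single probe set.

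Zfp386 was low in 129S2, C3HeB/FeJ and AKR/J in all 6 tissues and higher in C57BL/6J, A/J and DBA2/J. Testis showed it most widely: C57BL/6J read 8.05, 8.18 and 7.87, A/J 7.67, 7.89 and 7.59, and DBA2/J 7.67, 7.79 and 7.64, while 129S2 read 6.05, 6.20 and 6.29, C3HeB/FeJ 5.87, 5.71 and 5.79, and AKR/J 5.91, 5.95 and 6.31. No array of one side reached the other. The range was 2.24 ± 0.11 in testis (adjusted p 6.42e-12), 2.03 ± 0.11 in liver (3.01e-11) and 1.64 ± 0.10 in kidney (1e-10). It was 1.29 ± 0.12 in lung, 1.18 ± 0.18 in heart and 1.13 ± 0.11 in brain. The sides were apart in every tissue but heart, where array 2 of 129S2 read 7.70 and the lowest A/J array 7.35. The other probe set of Zfp386 passed with the same sign in all 6 tissues.

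Zfp949 was high in DBA2/J alone in all 6 tissues, with no overlap in any. In lung DBA2/J read 8.33, 8.38 and 8.76 against a highest value of 7.24 in other strains, a range of 1.62 ± 0.10 (adjusted p 4.23e-08). In testis DBA2/J read 6.64, 6.60 and 6.89 against 5.47 at most, a range of 1.60 ± 0.10 (2.54e-09). Its other probe set again passed with the same sign in all 6 tissues, with DBA2/J 2.12 above A/J in lung.

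Zfp729a was highest in DBA2/J and C3HeB/FeJ and lowest in C57BL/6J. In lung DBA2/J read 8.36, 8.47 and 8.58 and C3HeB/FeJ 8.44, 8.42 and 8.27, A/J, 129S2 and AKR/J lay between 7.64 and 7.81, and C57BL/6J read 7.31, 7.21 and 7.05. The range there was 1.28 ± 0.08 (adjusted p 2.5e-08). Its pattern was alike across organs to the extent the fit could resolve: the test of dependence on tissue gave an adjusted p of 0.418, the only one of the 25 genes to miss 0.05. That miss does not show that the differences were equal. One of its other probe sets passed with the same sign in all 6 tissues.

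Zfp931 was lowest in 129S2 in every tissue. In testis the strain means ran only from 3.60 to 4.42, and the widest gap set AKR/J apart above the rest. In kidney 129S2 read 6.55, 6.41 and 6.56 and the lowest other array 7.67, a range of 1.50 ± 0.08 (adjusted p 2.23e-10). In heart 129S2 read 5.30, 6.21 and 5.31 against 6.81 at the least elsewhere, a range of 1.71 ± 0.18 (1.9e-05). In brain the arrays labelled 129S2 read 7.53, 8.80 and 7.61 and those labelled AKR/J 9.02, 8.35 and 9.13. The groups overlapped there, with a range of 1.10 ± 0.24 (adjusted p 0.0166). Without array 2 of each strain the range was 1.51 (adjusted p 1.33e-09) and 129S2 no longer overlapped with any strain.

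**Figure D3:**
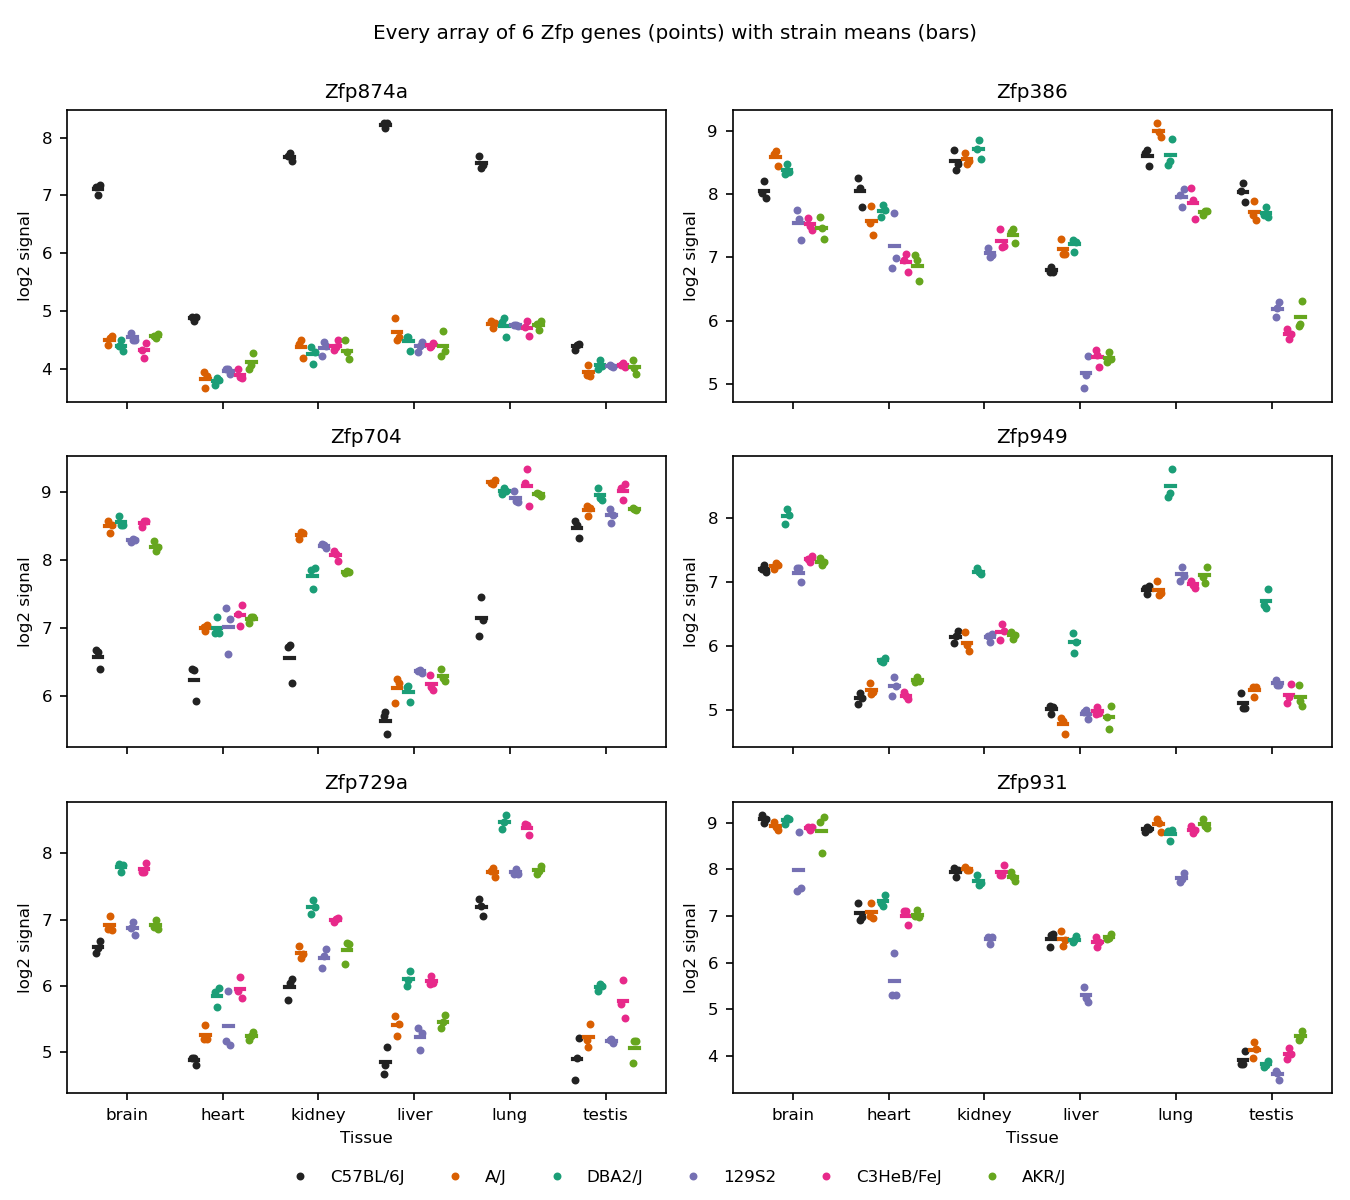
Points are single arrays and bars the means of 3, on the log2 scale, in 6 tissues for 6 Zfp genes, colored by strain. Zfp874a is set apart in C57BL/6J and Zfp949 in DBA2/J in every tissue, and a 129S2 and an AKR/J brain array of Zfp931 lie away from their groups.

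Zfp704 was low in C57BL/6J in 5 tissues by the probe set used. In lung C57BL/6J read 6.88, 7.45 and 7.12 against 8.79 at the least elsewhere, a range of 2.00 ± 0.13 (adjusted p 3.7e-08), and in brain it read 6.67, 6.65 and 6.39 against 8.13, a range of 1.99 ± 0.07 (5.84e-12). Its other probe set did not show this in those organs. In brain that probe set had strain means of 8.90 to 9.01 (adjusted p 0.502 over all probe sets), and in lung C57BL/6J had the highest mean, 9.21 ± 0.05 (SD, n = 3).

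Zfp458, a member of the same chromosome 13 cluster as Zfp874a, was highest in A/J in 5 tissues. In lung A/J read 6.79, 7.37 and 7.07, AKR/J 6.52, 6.53 and 6.69, 129S2 6.14, 6.63 and 6.38, DBA2/J 5.67, 5.41 and 5.78, C3HeB/FeJ 5.72, 5.66 and 5.27, and C57BL/6J 4.56, 4.25 and 4.57. C57BL/6J thus lay below every other array, with a range of 2.62 ± 0.16 (adjusted p 6.3e-08). In kidney the range was 2.21 ± 0.10 (4.44e-11). Testis had another order: C57BL/6J, at 6.97, 6.74 and 6.93, was among the higher strains and DBA2/J, at 6.21, 5.88 and 5.89, the lowest in the mean, overlapping with C3HeB/FeJ at 6.18, with a range of 1.15 ± 0.12 (2.79e-06). The other probe set of Zfp458, with mean signals between 3.27 and 4.32, passed in no tissue.

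The dependence on tissue was strongest for Zfp874a, Zfp979, Zfp991, Zfp458 and Zfp697. For C57BL/6J the comparison of brain, heart or lung with kidney, liver or testis was also one between different animals. Zfp979, also named Ssm1b and described as a strain-specific modifier of transgene methylation, was high in C3HeB/FeJ and AKR/J in kidney and lung. In kidney C3HeB/FeJ read 7.51, 7.42 and 7.61 and AKR/J 7.35, 7.12 and 7.09, while C57BL/6J, A/J and DBA2/J lay between 3.98 and 4.34 and 129S2 read 3.67, 3.54 and 3.56. This was a range of 3.92 ± 0.09 (adjusted p 1.29e-16), and lung gave 2.79 ± 0.13 (1.47e-10). In testis the same C3HeB/FeJ and AKR/J were on the low side: they read 4.16 to 4.69, 129S2 read 4.10, 3.63 and 4.00, and C57BL/6J, A/J and DBA2/J read 5.48 to 5.96. The range there was 1.87 ± 0.14 (adjusted p 2.18e-09). Brain, heart and liver showed another pattern: the widest gap set DBA2/J alone above the other strains, without overlap only in heart. The adjusted p of the dependence on tissue was 1.04e-40.

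Zfp697 and Zfp748 were the genes whose highest and lowest strains changed places between tissues with a range of at least 0.5 in both. Zfp697 was highest in DBA2/J and lowest in 129S2 in kidney (9.20 ± 0.04 and 8.19 ± 0.20, SD, n = 3) and the reverse in testis (4.59 ± 0.02 and 5.10 ± 0.05). In heart, DBA2/J, at 4.84, 4.77 and 4.89, and 129S2, at 4.80, 4.50 and 4.47, both lay below the remaining arrays, which began at 5.67, with a range of 1.72 ± 0.15 (adjusted p 4.23e-07). Zfp748 in testis was low in DBA2/J, at 6.80, 6.96 and 6.73, and in C3HeB/FeJ, at 6.78, 6.88 and 6.98, and read at least 8.08 in the other strains (range 1.62 ± 0.12, adjusted p 1.04e-09). In kidney its lowest strain was A/J, at 6.20, 5.68 and 5.85 against 6.34 at the least elsewhere, and DBA2/J the highest (range 0.60 ± 0.11, adjusted p 0.00144).

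The widest ranges of single organs brought in further genes. Zfp551 in brain was low in AKR/J, whose arrays read 4.98, 6.70 and 4.48, while those labelled 129S2 read 7.31, 5.69 and 7.00 and the other 12 arrays 6.99 to 7.47. The 2 labelled groups overlapped, and the range was 2.01 ± 0.41 (adjusted p 0.01). Without array 2 of both strains the AKR/J mean was 4.73, the range 2.67, and AKR/J lay below every other array (adjusted p 3.79e-09). Leaving out array 1 of AKR/J alone gave an adjusted p of 0.0631, and 2 of 18 such omissions ended the call. Zfp939 in brain was high in C57BL/6J, at 7.62, 7.77 and 7.87, and DBA2/J, at 7.70, 7.94 and 7.76, and read at most 7.09 elsewhere (range 1.43 ± 0.14, adjusted p 8.89e-07; 1.58 and 1.65e-07 without the pair of brain arrays). Zfp868 in liver was high in 129S2, at 7.05, 7.10 and 7.04 against 6.13 at most in other strains (range 1.40 ± 0.11, adjusted p 1.31e-07). Zfp354b in testis was also high in 129S2, at 7.87, 7.52 and 7.67 against 7.00 at most (range 1.60 ± 0.15, adjusted p 2.47e-06).

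Of the 63 genes that passed in a single tissue, those with the widest range were 4 testis genes and 1 liver gene. Zfp572 was low in 129S2 testis, at 5.97, 5.92 and 5.61 against 6.44 at the least elsewhere (range 1.23 ± 0.09, adjusted p 1.03e-07). Zfp936 was high in 129S2 testis, at 5.55, 5.51 and 5.45 against 5.25 at most (1.10 ± 0.16, adjusted p 0.000339). Zfp980 was low in C3HeB/FeJ and AKR/J testis, whose highest array read 6.85 against 6.99 for the lowest of the rest (1.05 ± 0.13, adjusted p 6.69e-06). Zfp819, a KRAB zinc finger gene of the germ line described as a repressor of endogenous retroviruses, ranged from 7.93 ± 0.17 in C57BL/6J to 7.09 ± 0.23 in AKR/J testis (SD, n = 3; adjusted p 2.21e-05). Zfp810 in liver ranged from 6.44 ± 0.22 in C57BL/6J to 5.49 ± 0.46 in A/J (adjusted p 0.00114), and its strains overlapped. The 4 testis genes read at most 4.88 in heart and 4.9 in liver, below the array medians of those tissues. Their lack of a call there does not show that the strains were alike.

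By role, the genes with a known part in silencing transposons or in imprinting came first. All 7 listed were measured, and Zfp932, Zfp961 and Zfp708 passed in all 6 tissues, as did 10.7% of the Zfp genes and 3.57% of all genes. The list is short and was drawn up with earlier results of these data known, so its count is a description. Zfp932, which binds endogenous retroviruses, was low in A/J, 129S2 and AKR/J in every tissue. In liver those strains read 5.34 to 5.88 and C57BL/6J, DBA2/J and C3HeB/FeJ 6.02 to 6.77 (range 1.09 ± 0.15, adjusted p 3.79e-05). Zfp961 in testis was high in C57BL/6J, at 6.20, 6.19 and 6.13, and A/J, at 6.23, 6.16 and 6.30, and read at most 5.78 in the other strains (range 0.81 ± 0.08, adjusted p 1.63e-07). Zfp708 in lung ranged from 5.74 ± 0.12 in C57BL/6J to 4.89 ± 0.07 in A/J (adjusted p 3.97e-05). Zfp445, which maintains genomic imprints, passed in heart, kidney, liver and testis with ranges of 0.41, 0.59, 0.75 and 0.26. Zfp809, which silences retroviral DNA in embryonic cells, passed in kidney (0.46) and lung (0.32), and Zfp568, a repressor of a placental Igf2 transcript, in lung (0.62).

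Genes with a known part in mesenchyme and fat included Zfp423, a determinant of preadipocytes. It was low in C57BL/6J brain, at 7.75, 7.43 and 7.60, and DBA2/J, at 7.72, 7.79 and 7.71, and read at least 8.02 in the other strains (range 1.20 ± 0.10, adjusted p 4.91e-07). It also passed in heart (range 1.08), kidney (0.47), lung (1.10) and testis (0.68). The highest lung array of Zfp423, at 6.95, was array 3 of C3HeB/FeJ, the one high in adipose and muscle markers, and C3HeB/FeJ overlapped with A/J in lung. Zfp467, which acts in the choice between fat and bone cells, passed in every tissue but testis. In kidney A/J read 8.35, 8.11 and 8.36, and C57BL/6J, DBA2/J and 129S2 read at most 7.52 (range 1.05 ± 0.11, adjusted p 1.15e-06). Zfp516 passed in no tissue.

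Among the neural genes Zfp521, which acts in neural and blood progenitors, was low in testis of C57BL/6J, at 3.99, 3.85 and 3.90, and DBA2/J, at 4.01, 3.79 and 4.07, and read at least 4.73 in the other strains (range 1.38 ± 0.11, adjusted p 1.89e-08). Zfp365 was lowest in C57BL/6J kidney (3.68 ± 0.07, SD, n = 3) and highest in C57BL/6J lung (7.18 ± 0.03), with ranges of 1.61 and 1.11. These C57BL/6J kidneys and lungs came from different animals. Zfp503, a developmental regulator, passed in every tissue but lung with ranges of 0.41 to 0.61, and Zfp536 passed in none. Zfp462 passed in lung (0.52), and Zfp335 (0.26) and Zfp804a (0.17) in brain, the last no longer without the pair of brain arrays. Among the genes for RNA and ribosome factors Zfp326, Zfp598, Zfp622 and Zfp638 had ranges between 0.12 and 0.59, and Zfp346, a binder of double-stranded RNA, reached 0.81 in lung. Zfp541, a chromatin factor of meiotic germ cells, passed only in testis, at a range of 0.40. Zfp474, of the same germ cell list, passed only in lung (0.61). Among chromatin regulators Zfp410 passed in heart and testis, Zfp592 in kidney and lung, Zfp644 in lung and Zfp687 in brain, with ranges of 0.21 to 0.39. Zfp318, a regulator of IgD in B cells, passed in lung (0.20) and testis (0.22).

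Of 24 listed genes of TRIM28-dependent silencing, through which KRAB proteins act, 22 were measured. In kidney 8 passed (36.4%, against 46.1% of all genes), in testis 8 (36.4% against 40.5%), in liver 8 (36.4% against 31.6%), in lung 7 (31.8% against 32.5%), in brain 3 (13.6% against 23.1%) and in heart 2 (9.09% against 21%), none with a range of 1. Trim28 had ranges of 0.05 to 0.34 and passed in kidney and liver, and Setdb1, the H3K9 methyltransferase it recruits, passed in no tissue with ranges of 0.05 to 0.24. The widest range was that of Atf7ip, the cofactor of that enzyme, in kidney, from 8.03 ± 0.08 in C57BL/6J to 7.19 ± 0.05 in C3HeB/FeJ (SD, n = 3; adjusted p 4.05e-05), and C57BL/6J had its highest mean in all 6 tissues. Pphln1 reached 0.64 in lung and Atrx 0.66 in testis.

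Zfp genes of this number range lay close together on the chromosomes. Chromosome 7 held 59 of the 234 (25.2%, against 7.84% of all genes), chromosome 17 held 28 (12% against 4.63%) and chromosome 13 held 22 (9.4% against 3.89%). In the order of tested genes, 104 of them formed 37 runs of direct neighbours. Of the 104 in runs, 16 (15.4%) passed in all 6 tissues, and of the 130 outside runs 9 (6.92%) did, against 3.57% of all genes. By single tissue the shares in and outside runs were 51.9% and 40.8% in kidney, 48.1% and 40.8% in lung, 44.2% and 37.7% in testis, 40.4% and 30% in brain, 32.7% and 31.5% in liver, and 26.9% and 23.8% in heart.

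The longest run held 8 genes of chromosome 17, in the order Zfp820, Zfp995, Zfp942, Zfp943, Zfp994, Zfp944, Zfp758 and Zfp946. Of these all 8 passed in testis, where 40.5% of all genes did, 6 in kidney (all genes 46.1%), 5 each in brain (23.1%), lung (32.5%) and liver (31.6%), and 4 in heart (21%). Within it 2 pairs of genes start head to head, in opposite directions from a short stretch of DNA. These stretches are shown because one lies whole within the other and their genes belong to the run. In RefSeq's GRCm38.p6 sequence of C57BL/6J, plus strand, the bases between the start sites of Zfp942 and Zfp943 are chr17:21962465-21962558, and those between Zfp944 and Zfp758 are chr17:22361401-22361462. Capitals mark the palindrome CACGTG, the E-box, and each stretch is upstream of both start sites.
Zfp942 and Zfp943: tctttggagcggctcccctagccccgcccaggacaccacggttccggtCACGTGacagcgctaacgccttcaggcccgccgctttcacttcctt
Zfp944 and Zfp758: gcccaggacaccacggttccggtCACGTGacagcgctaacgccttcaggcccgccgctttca

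The 62 bases between Zfp944 and Zfp758 recur without a mismatch from position 26 of the 94 bases between Zfp942 and Zfp943. Among 32851 promoter windows, reaching from 250 bases before to 50 bases after a start, only those of these 4 genes held the stretch with up to 6 edits on either strand. CACGTG alone is common and was no more frequent here: 6.33% of the 237 windows of the Zfp genes held it, against 7.15% of all windows. Of the other motifs searched on both strands, CCAAT was in 42.6% of the Zfp windows against 37.4%, GGGCGG in 51.5% against 35.7%, and TATAAA in 6.33% against 13.6%. Windows were used for 191 of the 234 genes, and those of chromosome 18 were left out. The sequences of the other strains were not used here.

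In testis Zfp942 read 7.41, 7.55 and 7.42 in C57BL/6J, 7.05, 7.67 and 7.39 in C3HeB/FeJ and 7.20, 7.26 and 7.85 in AKR/J. It read 6.66, 6.57 and 6.75 in A/J, 6.27, 6.48 and 6.54 in DBA2/J and 6.40, 6.32 and 6.27 in 129S2. The last 3 strains lay below the first 3 without overlap (range 1.13 ± 0.15, adjusted p 3.55e-06). Zfp943 parted the same strains in testis, with a highest low-side array of 6.38 and a lowest high-side array of 6.88 (range 0.98 ± 0.08, adjusted p 6.2e-09). Zfp995, the neighbour of Zfp942, did so as well (5.35 and 5.60; range 1.14 ± 0.17, adjusted p 4.49e-05). Over all tissues, Zfp943 passed in all 6 tissues and Zfp942 in kidney and testis. The agreement seen in testis was the closest: in kidney DBA2/J was the highest strain for Zfp942 and on the low side for Zfp943. Over the 6 strain means this pair correlated at 0.98 in testis, 0.857 in liver and 0.811 in heart. Brain gave 0.772, kidney 0.611 and lung -0.239. Zfp944 passed in all 6 tissues and Zfp758 in all but heart, where its adjusted p was 0.075. In liver C57BL/6J was on the low side for Zfp944 and was the highest strain for Zfp758.

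Zfp994, in the middle of the run, was low in A/J, DBA2/J and 129S2 in all 6 tissues. In kidney these read 5.17 to 5.60 and the other 3 strains 6.14 to 6.74 (range 1.15 ± 0.13, adjusted p 1.77e-07). This split of A/J, DBA2/J and 129S2 against C57BL/6J, C3HeB/FeJ and AKR/J, in either direction, made up 24 of the 79 strain differences found for Zfp genes of chromosome 17 over the 6 tissues (30.4%), in 9 genes, and the arrays of the 2 sides did not overlap in 15 of the 24. For all genes of chromosome 17 it made up 56 of 1680 (3.33%), with no overlap in 30 of the 56. On other chromosomes it made up 1 of 441 for Zfp genes (0.227%) and 209 of 33776 for all genes (0.619%). Without the pair of brain arrays it was 24 of 80 (30%) on chromosome 17, with 20 free of overlap, and for all genes of that chromosome 60 of 1716 (3.5%), with 43 free of overlap. The split was chosen after its values were seen, neighbours share a chromosome segment, and these shares are a description.

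**Figure D4:**
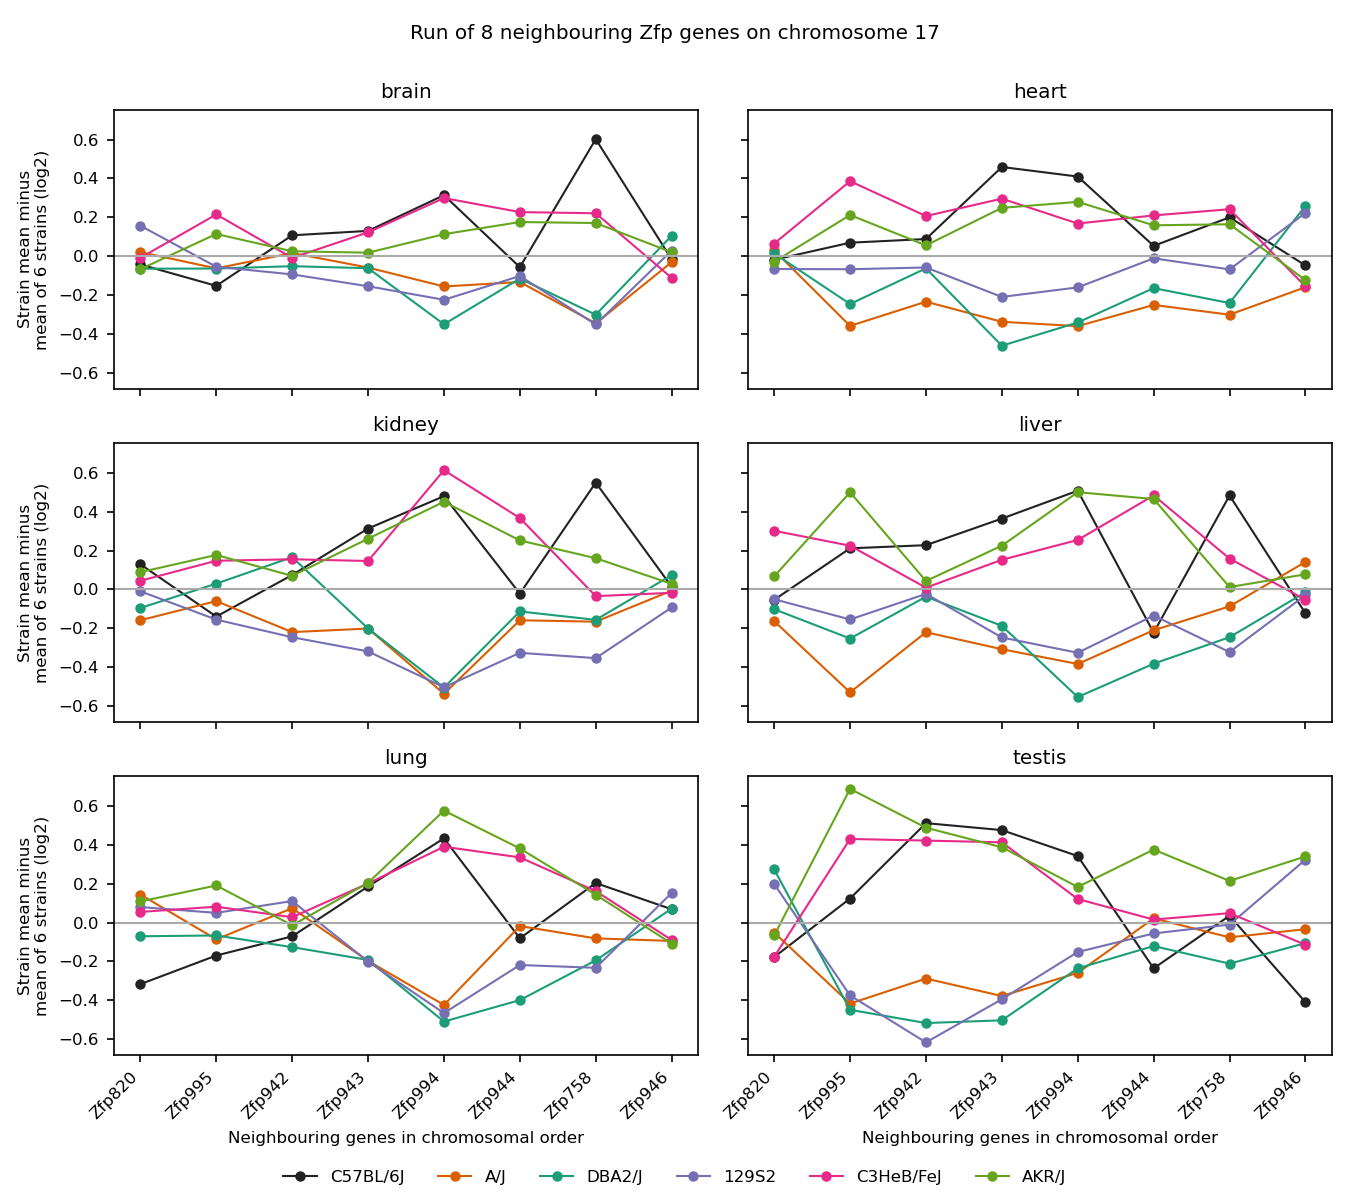
Points give the strain mean minus the mean of the 6 strains, on the log2 scale, for 8 neighbouring Zfp genes of chromosome 17 in each tissue; lines join the genes of a strain in chromosomal order. From Zfp943 to Zfp994 the A/J, DBA2/J and 129S2 points lie below those of C57BL/6J, C3HeB/FeJ and AKR/J in heart, kidney, liver, lung and testis.

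The next longest run held 7 genes of chromosome 13: Zfp455, Zfp458, Zfp595, Zfp953, Zfp429, Zfp874a and Zfp874b. Several belong to the regulator of sex-limitation family, and Zfp429 is Rsl2, a repressor of male-specific liver genes. Of the 7 genes 4 to 5 passed in each tissue, against 21% to 46.1% of all genes by tissue, and the patterns differed from gene to gene. In lung Zfp429 was low in 129S2, at 5.32, 4.90 and 4.98, and AKR/J, at 4.87, 4.99 and 5.07, and read at least 5.97 elsewhere (range 1.46 ± 0.14, adjusted p 7.21e-07), whereas its neighbour Zfp874a set C57BL/6J alone apart. Zfp874b, on the other side of Zfp874a, was low in A/J in lung, at 6.17, 6.61 and 6.45 against 6.77 at the least elsewhere (range 0.63 ± 0.11, adjusted p 0.00289). Zfp595, between Zfp458 and Zfp953, passed in no tissue, with ranges of 0.17 to 0.34.

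How far a strain difference held in a second probe set of the same gene could be asked for the genes with more than 1. Of the Zfp genes that passed and had another probe set, a further probe set passed with the same sign for 35 of 57 in kidney (61.4%, against 58.3% for all genes), 32 of 59 in lung (54.2% against 58.4%), 15 of 30 in heart (50% against 49%), 19 of 40 in liver (47.5% against 52.4%), 20 of 43 in brain (46.5% against 47.3%) and 20 of 48 in testis (41.7% against 48.2%). A further probe set passed with the opposite sign for 6 in kidney (10.5%, against 10.6% for all genes), 7 in lung (11.9% against 10.7%), 3 in heart (10% against 6.27%), 3 in liver (7.5% against 7.37%), 6 in brain (14% against 12.5%) and 5 in testis (10.4% against 10.7%). The widest ranges among the opposed genes were those of Zfp991 in kidney, Zfp704 in lung and Zfp945 in lung.

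Zfp945, a chromosome 17 gene outside the run of 8, gave opposite results from its probe sets in lung. By the brighter one A/J, DBA2/J and 129S2 read 8.73 to 9.36 and the other strains 7.90 to 8.40 (range 0.99 ± 0.18, adjusted p 0.000345). By the other probe set the same 3 strains had means of 5.62 to 5.81 and C57BL/6J, C3HeB/FeJ and AKR/J means of 8.89 to 8.95, a range of 3.32. Both probe sets thus parted the same strains, in opposite directions, and the strain with more Zfp945 signal depends on the probe set read. Zfp991 in testis had C57BL/6J at 9.19 ± 0.09, A/J at 9.46 ± 0.07, DBA2/J at 8.53 ± 0.13, 129S2 at 9.73 ± 0.07, C3HeB/FeJ at 8.51 ± 0.03 and AKR/J at 8.77 ± 0.07 by the brighter probe set (SD, n = 3). The other probe set had C3HeB/FeJ and AKR/J lowest there, with means of 5.90 and 6.02 against 7.64 to 8.93. In kidney the brighter probe set put C57BL/6J and A/J lowest, at 4.82 to 5.46 against 6.04 at the least elsewhere (range 2.07 ± 0.12, adjusted p 5.29e-10), and the other put them highest, with means of 5.93 and 5.90 against 4.36 to 5.23. What sets the probe sets of a gene apart was not tested.

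**Figure D5:**
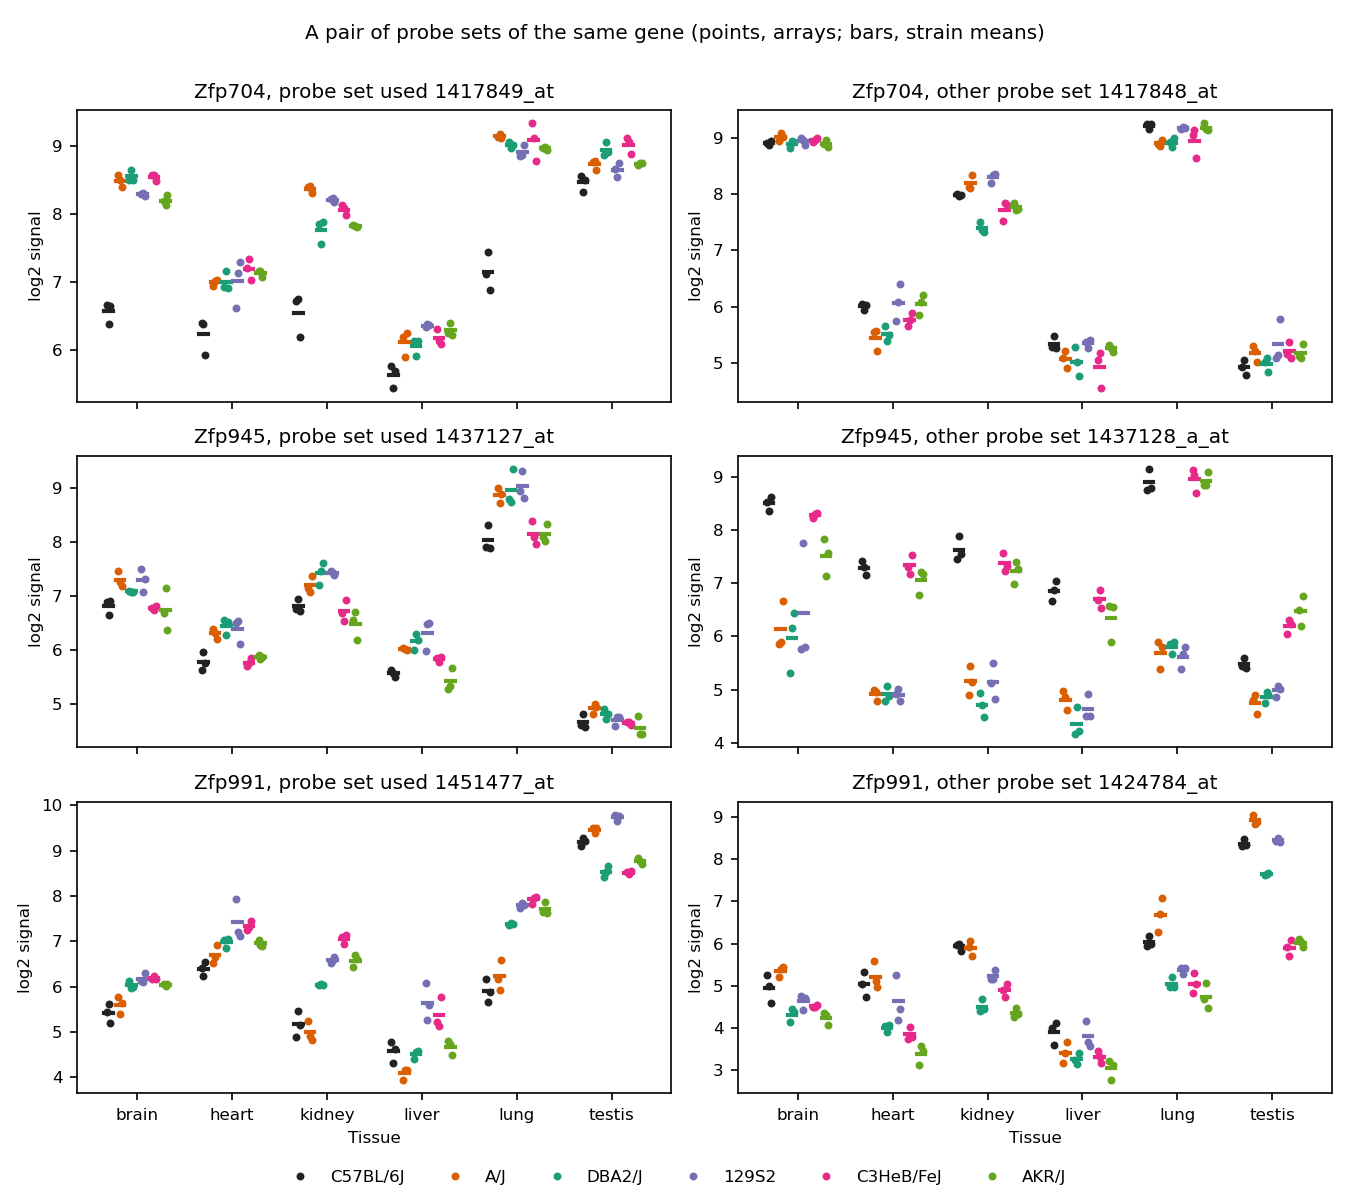
Points are single arrays and bars the means of 3, on the log2 scale, by tissue and strain; the left panels show the probe set used for Zfp704, Zfp945 and Zfp991 and the right panels another probe set of the same gene. For Zfp945 the strains that are higher on the left are lower on the right in lung, with a range of 0.99 against 3.32.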

How the data were processed

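The authors deposited log2 signals of 45101 probe sets per array, made with RMA per the submitters' processing notes; a version, the chip definition and whether tissues were normalized together are not given in the sources used here. RMA sets all arrays normalized together on 1 distribution, which can hide a shift shared by most genes. Array medians ran from 4.95 to 5.01 within liver and from 6.80 to 6.83 within lung. Signal levels were not tested between tissues. Of these probe sets, 34945 had 1 annotated gene, 932 several, 9160 none and 64 were controls; 34741 were matched to RefSeq's gene table by gene ID. The brightest probe set of each gene was kept.

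Strains were compared in each tissue with the moderated F test of limma 3.58.1 (R 4.3.3) on the 18 arrays, p-values being adjusted by Benjamini and Hochberg's method over the 18193 genes tested, threshold 0.05. A fit over all arrays, with the animal as a random block (correlation 0.0184), tested the strain effect averaged over tissues and its dependence on tissue. The SE of a range is that of a difference of the highest and lowest strain means from the moderated spread, and takes no account of picking the extremes. Values were computed with Python 3.11.15. The fits were tested on simulated data. Replicates were separate animals by their titles, though the labels' protocol speaks of pools, so p-values measure the spread between these arrays.

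Genes named were, in each tissue, the 5 with the widest range among those that passed; the 5 with the widest averaged range among those that passed in all 6 tissues; the 5 with the smallest p for dependence on tissue; neighbours with ranges of at least 1; the 5 widest of those that passed in 1 tissue; 3 with opposed probe sets; and fixed lists of roles and of silencing partners. Of the role list Zfp488, Zfp366 and Zfp831 were not among the genes tested. Other names were chosen after their values were seen. The genes and lists were chosen with earlier results of these data known. Alternatives were other probe sets, no cross-hybridising probe sets, a filter on mean signal, aligned medians, an intensity trend, a replicate block and each array left out; the omission of the 2 brain arrays was chosen after seeing the data. Protein sequences were not used here.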

Additional observations from a re-analysis of the deposited data

Results flagged for a closer look

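A strain difference that depended on the tissue was found for 165 of the 234 Zfp genes by the interaction test of limma over all arrays, against 72.4% of all genes, which is above the 70.5% that these make up. What flagged each gene here was that its differences among strains were unequal between tissues. The adjusted p of that test was 2.85e-42 for Zfp874a, 1.04e-40 for Zfp979, 4.44e-23 for Zfp991, 4.44e-20 for Zfp458, 1.4e-19 for Zfp697 and 5.42e-18 for Zfp748.

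For Zfp874a the direction was the same in all 6 tissues and the size differed, with C57BL/6J highest throughout and a range from 0.45 in testis to 3.84 in liver. For Zfp979 the strains changed sides: C3HeB/FeJ and AKR/J were the high pair in kidney and lung and on the low side in testis. In brain, heart and liver DBA2/J alone lay above the widest gap. For Zfp458 C57BL/6J was the lowest strain in lung and lay near the highest in testis, which came from different animals. Zfp697 and Zfp748 exchanged their highest and lowest strains between kidney and testis. Zfp991 was highest in C3HeB/FeJ in kidney and lowest in it in testis, and its probe sets disagreed in kidney.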

How the results depend on the processing

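Of 397 alternatives for 15 counts, 379 stayed within 1.5 times the reported count. A second probe set with the same sign left 35 genes in kidney, 32 in lung, 20 in brain, 20 in testis, 19 in liver and 15 in heart, and by construction only genes with several probe sets can enter. A mean signal of at least 6 over the arrays of the tissue left 30 genes in heart and 39 in liver, and with a range of 1 it left 4 in heart, 9 in kidney, 5 in liver and 11 in testis. Where that mean was required in every tissue, 4 of 70 Zfp genes passed in all 6 (5.71%, against 7.52% of 6997 genes). The mean of all probe sets left 6 in heart and 10 in testis with that range.

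The replicate number as a block gave 92 genes in lung, 87 in kidney, 74 in testis, 66 in brain, 52 in heart and 49 in liver, 10 in kidney with a range of 1, and 15 in all 6 tissues (6.41%, against 1.92% of all genes). In kidney, liver and testis the block left out C57BL/6J, whose animals share no number with the others, and 94, 54 and 79 passed there without the block. Same-numbered arrays did not deviate together (median correlations -0.01 to 0.07), so the number was not taken as a pairing. Without C57BL/6J, Zfp874a had an adjusted p of 0.746 in kidney and 0.461 in liver.

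With each array left out in turn the counts ran from 97 to 109 in kidney, 90 to 106 in lung, 88 to 99 in testis, 69 to 89 in brain, 66 to 76 in liver and 53 to 66 in heart. With a range of 1 they ran from 16 to 19, 18 to 21, 16 to 18, 10 to 14, 14 to 16 and 7 to 11 in that order of tissues. With each animal left out they ran from 158 to 168 averaged, 155 to 162 for the dependence on tissue and 19 to 26 in all 6 tissues. Without array 3 of C3HeB/FeJ lung, 106 passed.

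Of 39 named results, 38 kept their call whichever array was left out, the exception being Zfp551 in brain. These results were picked from the same arrays for wide ranges among genes that passed, so most were likely to keep their call. Over 264 other alternatives, 259 kept direction and call. Taking the brightest probe set of the tissue turned Zfp704 to -0.01 in brain (adjusted p 0.458) and to -0.31 in lung (0.0274), and the mean of all probe sets turned Zfp945 in lung to -0.53. With 3 arrays a group, a simulated difference of 0.5 was recovered less often in heart and lung than in brain, so small differences there may be missed.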

Other observations

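Among Zfp genes that passed in kidney, DBA2/J had the highest mean for 35 of 107 (32.7%, against 22.5% of all genes that passed) and 129S2 the lowest for 34 (31.8% against 27.3%). In brain DBA2/J was highest for 24 of 81 (29.6% against 23.6%) and 129S2 for 3 (3.7% against 14.7%). In testis AKR/J was lowest for 27 of 95 (28.4% against 19.8%) and highest for 12 (12.6% against 25.3%). The brain counts hold both arrays that resembled another strain more than their own, and no such counts without them are given.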
